A study of Mus musculus with 6 samples.

Results

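The EGF receptor family and its ligands were examined in SCC cells with and without focal adhesion kinase (FAK), a tyrosine kinase of integrin adhesion sites. The 10 genes were chosen by family membership and looked up by Ensembl identifier. They comprise 3 receptors (Egfr, Erbb2 and Erbb3) and 7 ligands (Areg, Ereg, Hbegf, Tgfa, Btc, Epgn and Egf), and all 10 were found among the 17204 genes measured. The receptor gene Erbb4 was not among the genes chosen. Betacellulin (Btc) and the receptors Egfr and Erbb3 were lower in SCC FAK-wt, which re-expresses FAK, than in SCC FAK-/- (limma adjusted p under 0.05). They were lower by 2.37-fold, 1.46-fold and 1.85-fold, where 1.10% of all genes were called lower. Btc alone kept its call when any 1 of the 6 arrays was left out, while Egfr and Erbb3 lost theirs. The other 7 genes did not pass this threshold. In the direction of higher expression in SCC FAK-wt, 0 of the 10 passed it, where 0.820% of all genes did.

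Both groups were mouse skin squamous cell carcinoma cells of the FVB strain with the genotype K14CreER FAKflox/flox, in which the keratin 14 promoter drives a tamoxifen-inducible Cre recombinase. The tumors had been raised in skin with the DMBA/TPA protocol. The SCC FAK-/- cells came from a clone isolated after 4-hydroxytamoxifen removed FAK, and the SCC FAK-wt cells are that clone carrying wild-type FAK from a hygromycin-resistance retrovirus and kept in hygromycin. With this design, re-expressed FAK cannot be told apart from retroviral insertion or drug selection, and both groups descend from the same clone. Total RNA from 3 biological replicates of each line was hybridized to 6 Affymetrix mouse arrays, 1 per replicate. How the replicates were separated, by culture or passage, is not given in the sources used here.

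EGF receptor family members are receptor tyrosine kinases that pair at the cell surface after ligand binding. Their ligands are made as transmembrane precursors, and proteolytic shedding releases the active growth factor. EGFR binds all of the ligands measured here, ERBB2 has no known ligand and acts as a preferred partner, and ERBB3 binds neuregulins and has a weak kinase but many docking sites for PI3-kinase. In epidermis, keratinocytes produce several of these ligands and respond to them, and the pathway governs their proliferation, migration and wound repair.

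Values are log2 expression after Robust Multi-array Average normalization, with 1 value per gene and array, so a difference of 1 is a 2-fold change. Differences are SCC FAK-wt minus SCC FAK-/- and are given with limma's moderated standard error, and adjusted p values are Benjamini-Hochberg values over all genes. The array medians lay between 5.90 and 5.97, and the median difference over all genes was 0.016. Probe brightness differs between genes, so levels are compared between cell lines and not between genes. Across the table, 1.10% of genes were called lower in SCC FAK-wt at an adjusted p under 0.05 and 0.820% were called higher. Among the 10 genes, 3 were called lower and 0 higher with limma. With an ordinary linear model per gene, 1 was called lower (Btc) and 0 higher, where 25 and 14 of all 17204 genes were. At an unadjusted p under 0.05, limma gave 4 lower (Areg joined the 3) and 1 higher (Ereg), where 7.74% and 7.76% of all genes were. The study's methods give p under 0.01 without saying whether it was adjusted. At an unadjusted p under 0.01, the same 3 genes were lower, where 3.66% of all genes were.

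**Figure D1:**
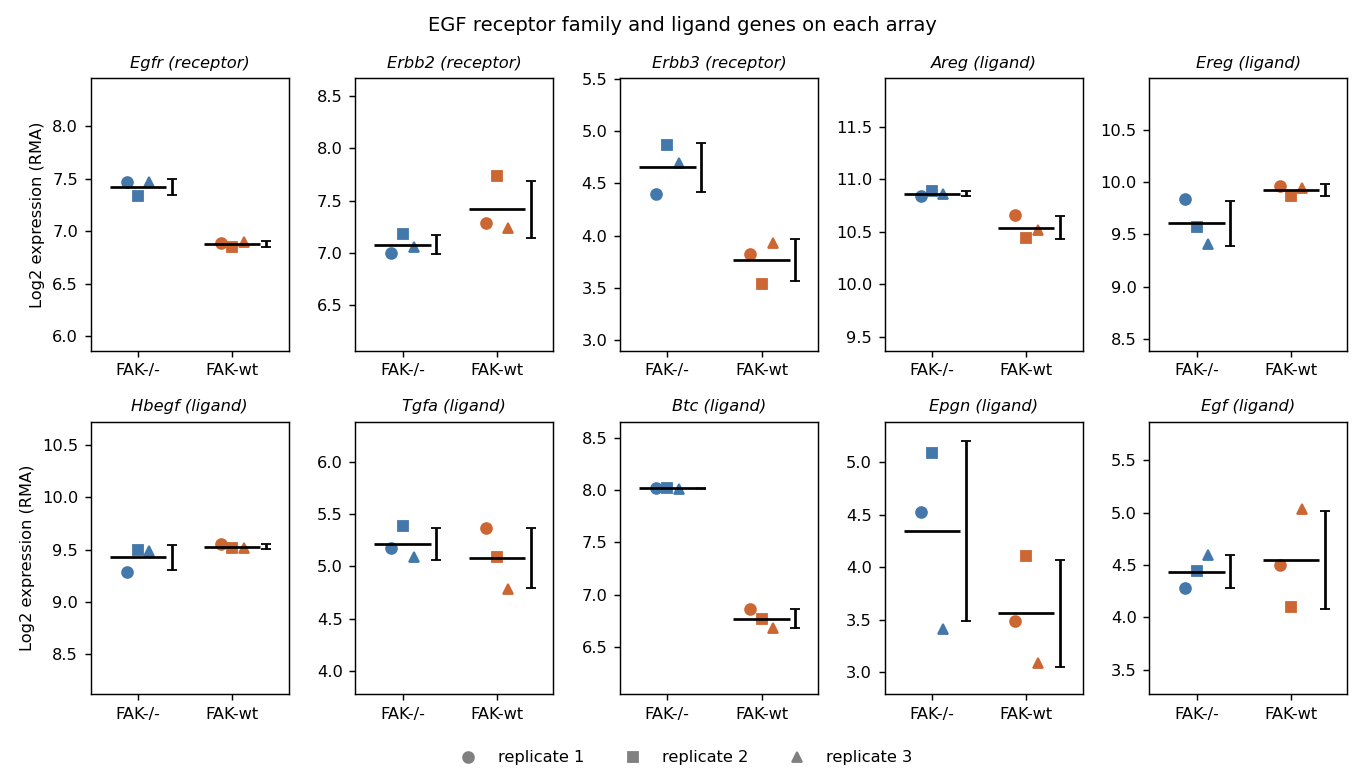
Log2 expression (vertical axis) of each gene on the 3 SCC FAK-/- arrays (blue) and the 3 SCC FAK-wt arrays (orange). Point shapes mark replicate numbers, lines mark means, bars mark the SD, and each panel spans the same range of log2 units around its own centre. The SCC FAK-wt points lie below all SCC FAK-/- points in Egfr, Erbb3, Areg and Btc, and the spread is widest in Epgn.

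Among the receptors, Egfr (ENSMUSG00000020122), the receptor shared by all ligands measured, was tightly replicated in both lines. It read 7.47, 7.34 and 7.47 on SCC FAK-/- replicates 1 to 3 and 6.88, 6.85 and 6.90 on SCC FAK-wt replicates 1 to 3. All SCC FAK-wt values were below all SCC FAK-/- values, with a gap of 0.44 log2 units between the lines. The mean fell from 7.42 ± 0.075 (SD, n = 3) to 6.88 ± 0.026 (SD, n = 3). Its log2 difference of -0.55 (standard error 0.095, limma adjusted p = 0.0411) is a 1.46-fold reduction with a 95% interval of 1.25 to 1.70. This p lay close to the threshold, and it rose to between 0.0998 and 0.141 when any of the 6 arrays was left out, while the difference stayed between -0.59 and -0.52. Centering each array on its median also raised it above the threshold, to 0.0529.

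Erbb3 (ENSMUSG00000018166), the neuregulin receptor with weak kinase activity, was 1.85-fold lower in SCC FAK-wt. Its values were 4.40, 4.86 and 4.69 on the SCC FAK-/- arrays and 3.83, 3.54 and 3.93 on the SCC FAK-wt arrays, without overlap. The log2 difference was -0.89 (standard error 0.16, limma adjusted p = 0.0450), and the 95% interval of the reduction was 1.43-fold to 2.40-fold. Leaving out any 1 of the 6 arrays raised the adjusted p to between 0.0640 and 0.145. Its mean over the 6 arrays, 4.21, was as high as or higher than that of only 27.9% of genes, and fold changes of genes this dim can be understated.

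Erbb2 (ENSMUSG00000062312), the partner receptor without a ligand of its own, did not pass the test. It read 7.00, 7.18 and 7.06 in SCC FAK-/- and 7.28, 7.73 and 7.24 in SCC FAK-wt. The SCC FAK-wt values were the higher ones on all arrays, but the gap between the lines was 0.06 log2 units, and replicate 2 of SCC FAK-wt stood above its partners. The log2 difference was 0.34 (standard error 0.15, limma adjusted p = 0.346), and its 95% interval on the log2 scale ran from -0.02 to 0.69. Without SCC FAK-wt replicate 2 the difference was 0.18. The receptors thus had differences of both signs, with the largest reduction in Erbb3.

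**Figure D2:**
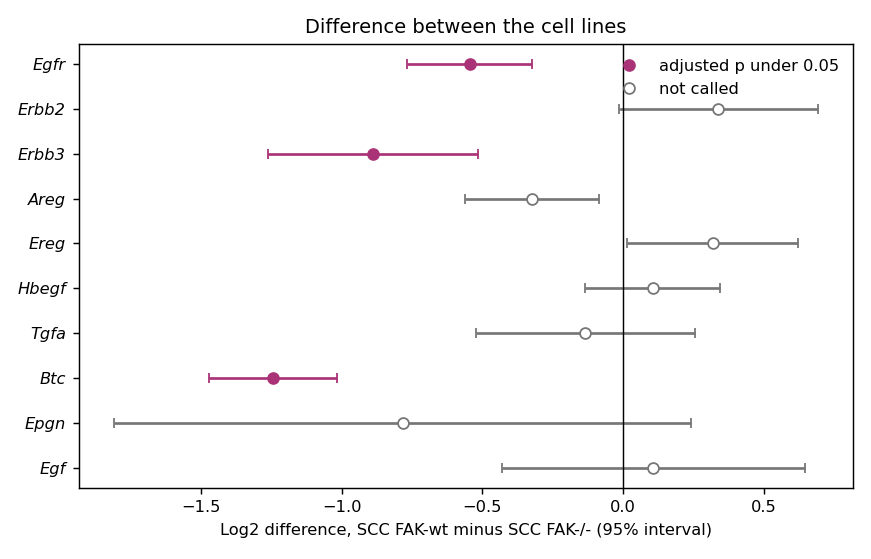
Log2 difference of each gene (horizontal axis), SCC FAK-wt minus SCC FAK-/-, with limma's 95% interval. Filled points passed an adjusted p under 0.05, which were Egfr, Erbb3 and Btc, and the intervals of Areg and Ereg lie on opposite sides of 0.

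Among the ligands, the largest reduction and the smallest p were in Btc (ENSMUSG00000082361), which encodes betacellulin, a ligand of EGFR and ERBB4. It read 8.02, 8.02 and 8.01 in SCC FAK-/- and 6.86, 6.77 and 6.68 in SCC FAK-wt. The lines were separated by 1.14 log2 units, while the values ranged over 0.016 log2 units within SCC FAK-/- and 0.18 within SCC FAK-wt. The mean fell from 8.02 ± 0.0078 (SD, n = 3) to 6.77 ± 0.091 (SD, n = 3). This is a log2 difference of -1.24 (standard error 0.097, limma adjusted p = 0.00225), a 2.37-fold reduction with a 95% interval of 2.02 to 2.77. A difference as low or lower was found in 0.459% of all genes. Btc stayed under an adjusted p of 0.05 in all 18 alternatives tried, with values of 0.00184 to 0.0464 and differences of -1.29 to -1.20. The alternatives that changed only the threshold reused the reported fit, so they could not raise the adjusted p of Btc. In bulk RNA, fewer expressing cells and less RNA per cell cannot be told apart.

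Areg (ENSMUSG00000029378) encodes amphiregulin, an EGFR ligand of keratinocyte autocrine growth. It was measured at 10.84, 10.89 and 10.86 in SCC FAK-/- and at 10.66, 10.44 and 10.52 in SCC FAK-wt. The values did not overlap, yet the log2 difference of -0.32 (standard error 0.10) had a limma adjusted p of 0.176 and an unadjusted p of 0.0142. Its 95% interval, 1.06-fold to 1.48-fold lower, lay wholly below the interval of Btc. Over the alternatives its adjusted p ranged from 0.0565 to 0.371, so that it was not called in any of them.

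Ereg (ENSMUSG00000029377) encodes epiregulin, a ligand of EGFR and ERBB4, and its difference had the opposite sign. It read 9.83, 9.57 and 9.41 in SCC FAK-/- and 9.97, 9.86 and 9.94 in SCC FAK-wt. The lowest SCC FAK-wt value was above the highest SCC FAK-/- value by only 0.026 log2 units. Its log2 difference was 0.32 (standard error 0.13, limma adjusted p = 0.300, unadjusted p = 0.0428), with a 95% interval of 0.01 to 0.62. It was not called in any alternative.

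Hbegf (ENSMUSG00000024486), encoding heparin-binding EGF-like growth factor, varied little. Its values were 9.29, 9.50 and 9.49 in SCC FAK-/- and 9.56, 9.52 and 9.52 in SCC FAK-wt. The lines were separated by 0.018 log2 units, and SCC FAK-/- replicate 1 lay below the other arrays. For Hbegf the log2 difference was 0.10 (standard error 0.10, limma adjusted p = 0.714), and the 95% interval of the SCC FAK-wt to SCC FAK-/- ratio was 0.910 to 1.27. Without SCC FAK-/- replicate 1 the difference was 0.036.

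Tgfa (ENSMUSG00000029999) encodes transforming growth factor alpha, a keratinocyte ligand of EGFR. It read 5.18, 5.38 and 5.08 in SCC FAK-/- and 5.36, 5.09 and 4.78 in SCC FAK-wt, with the lines overlapping. Its log2 difference was -0.14 (standard error 0.17, limma adjusted p = 0.778), with a 95% interval of -0.52 to 0.25. Leaving out SCC FAK-wt replicate 3, the lowest array, turned the difference to 0.012.

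Epgn (ENSMUSG00000035020) encodes epigen, a low-affinity EGFR ligand, and was the most variable gene of the family. Its values were 4.53, 5.09 and 3.41 in SCC FAK-/- and 3.49, 4.10 and 3.09 in SCC FAK-wt. SCC FAK-/- replicate 3 fell among the SCC FAK-wt values, and the groups overlapped. The log2 difference of -0.78 was nearly as large as that of Erbb3, but its standard error was 0.44 and its limma adjusted p 0.465. The 95% interval ran from -1.81 to 0.24, so this fit cannot separate a reduction of up to 3.50-fold from a small increase. With the replicate number as a block, the standard error of Epgn was 0.18 and its limma adjusted p 0.145, still not called. The difference was -1.25 without SCC FAK-/- replicate 3 and -0.41 without SCC FAK-/- replicate 2.

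Egf (ENSMUSG00000028017), the epidermal growth factor gene, read 4.28, 4.44 and 4.59 in SCC FAK-/- and 4.49, 4.10 and 5.03 in SCC FAK-wt. The SCC FAK-wt arrays spanned those of SCC FAK-/- on both sides. The log2 difference was 0.11 (standard error 0.23, limma adjusted p = 0.887), with a 95% interval of -0.43 to 0.64, and it turned to -0.14 without SCC FAK-wt replicate 3. Egf, Epgn and Erbb3 were the 3 genes whose mean lay in the dimmest 33.3% of the table.

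The genes thus differed in how firmly they were measured. The pooled replicate SD was 0.056 for Egfr and 0.064 for Btc, as high as or higher than that of 4.10% and 6.06% of genes. It was 0.71 for Epgn and 0.35 for Egf, at or above 99.1% and 89.6% of genes. The SDs of Areg and Hbegf, 0.082 and 0.086, were also in the low part of the range. The median pooled SD was 0.18 over the 10 genes and 0.17 over all genes. Between Epgn and Egfr, the gene with the larger difference was thus the one not called.

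**Figure D3:**
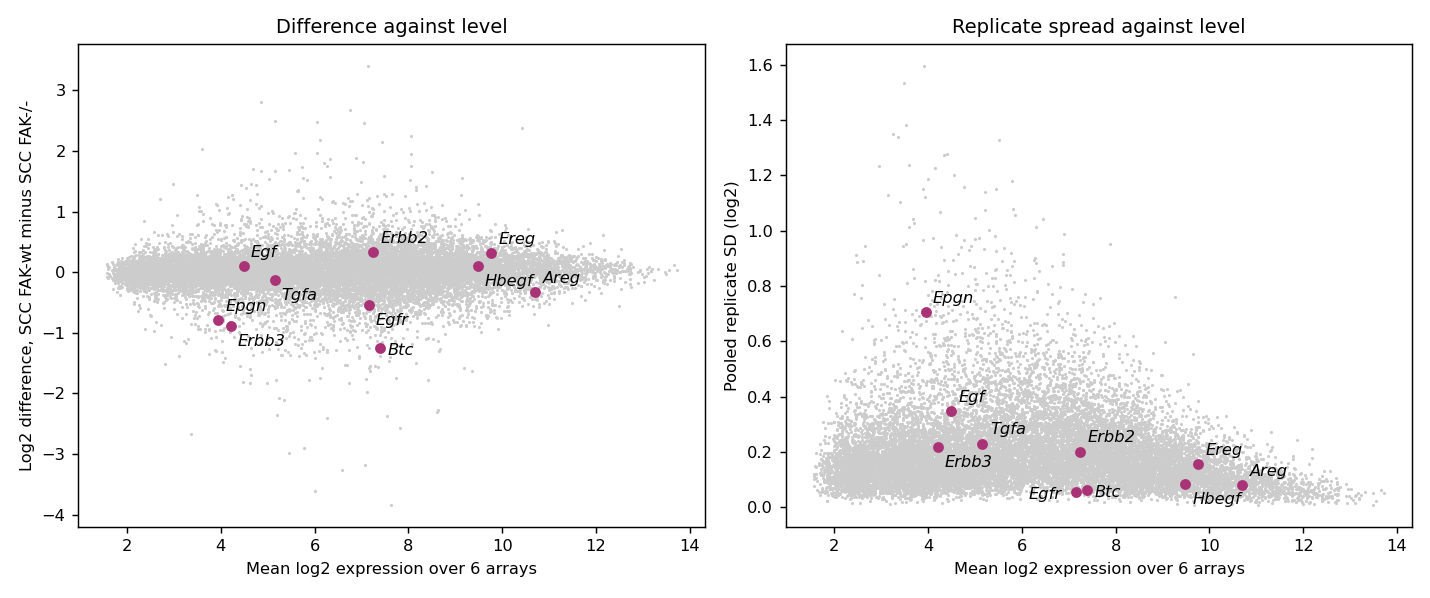
Each gray point is 1 of the 17204 genes and the purple points are the 10 genes of the family. Against the mean log2 expression over the 6 arrays are plotted the log2 difference, SCC FAK-wt minus SCC FAK-/- (left), and the pooled replicate SD in log2 units (right). Btc has the lowest difference of the 10, while Epgn has the highest SD and Egfr the lowest.

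By count, 6 of the 10 genes had a negative difference and 4 a positive one. The median difference was -0.23 over the 10, -0.55 over the 3 receptors and -0.14 over the 7 ligands, against 0.016 over all genes. The receptor median is the value of Egfr, and the ligand median is that of Tgfa, which was not called. A difference between receptors and ligands was not tested. The lines did not overlap in 7 of the 10 genes, 4 with SCC FAK-wt lower and 3 with SCC FAK-wt higher, where 21.5% of all genes had no overlap in either direction. Among the 3 with SCC FAK-wt higher (Erbb2, Ereg and Hbegf), the gap between the lines was 0.018 to 0.062 log2 units. With 3 arrays against 3, an exact two-sided permutation test of a single gene cannot give a p below 0.1.

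Epgn, Ereg, Areg and Btc follow each other in this order on mouse chromosome 5 in the RefSeq gene table of GRCm38.p6, with 0 other protein-coding genes between them. Within this run of 4 ligand genes the log2 differences were -0.78, 0.32, -0.32 and -1.24 in that order. Only Btc was called, and Ereg, which lies between Epgn and Areg, had the opposite sign to both.

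Promoter windows, the 250 bases before the transcript start in the RefSeq table of GRCm38.p6, were listed for 7 of the 10 genes, in 8 windows because Egf has 2. Erbb3, Ereg and Hbegf were not searched. The 8 windows were searched on both strands for the cAMP response element TGACGTCA, the AP-1 element TGACTCA and the TATA box letters TATAAA. The windows of Btc and Egfr are shown as those of called genes, and that of Areg because it held motifs, which are in capitals. The Btc window is chr5:91402995-91403244 on the minus strand, the Egfr window chr11:16751953-16752202 on the plus strand and the Areg window chr5:91139349-91139598 on the plus strand.
Btc: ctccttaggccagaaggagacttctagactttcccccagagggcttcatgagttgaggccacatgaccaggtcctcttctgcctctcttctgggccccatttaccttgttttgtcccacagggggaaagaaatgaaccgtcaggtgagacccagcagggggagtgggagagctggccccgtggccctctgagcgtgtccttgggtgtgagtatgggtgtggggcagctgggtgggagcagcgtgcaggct
Egfr: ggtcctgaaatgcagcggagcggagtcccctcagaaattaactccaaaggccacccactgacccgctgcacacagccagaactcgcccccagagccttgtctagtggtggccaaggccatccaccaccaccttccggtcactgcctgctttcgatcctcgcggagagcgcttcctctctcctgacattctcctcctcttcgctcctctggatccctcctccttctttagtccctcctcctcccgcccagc
Areg: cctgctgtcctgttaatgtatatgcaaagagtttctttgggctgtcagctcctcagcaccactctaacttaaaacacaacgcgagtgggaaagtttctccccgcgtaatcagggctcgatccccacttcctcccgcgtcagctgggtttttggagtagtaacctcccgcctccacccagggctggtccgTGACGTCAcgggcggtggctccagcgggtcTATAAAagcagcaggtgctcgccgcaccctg

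The Areg window held TGACGTCA with its first base 61 bases before the transcript start and TATAAA 31 bases before it. The Epgn window held TATAAA 86 bases before the start. None of the 3 motifs was found in the windows of Btc, Egfr, Erbb2, Tgfa and Egf, and TGACTCA was found in 0 of the 8 windows. Of all 32851 windows of this length, 1.55% held TGACGTCA, 4.46% TGACTCA and 12.4% TATAAA. Since neither the Btc nor the Egfr window held any of these motifs, these genes could not share one. At the shares above, such an absence is common and says little about either gene. Erbb3, the other called gene, was not searched.

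**Figure D4:**
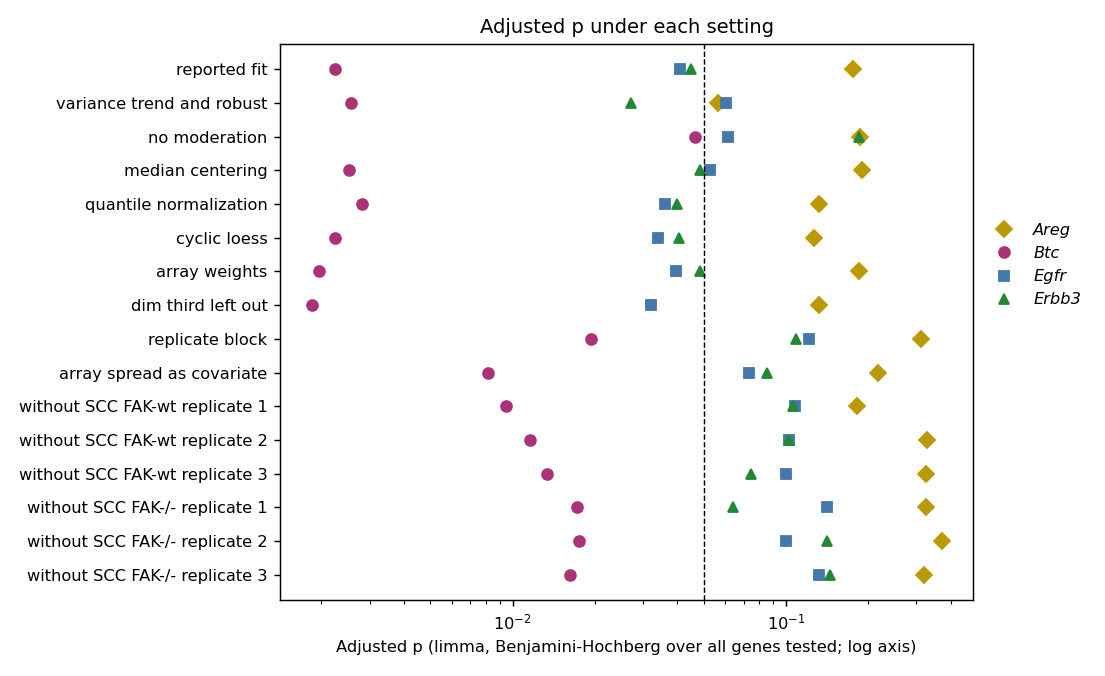
Adjusted p (horizontal log axis) of Btc, Egfr, Erbb3 and Areg in the reported fit and under other settings (rows), with the dashed line at 0.05. Btc lies left of the line in every row, Areg right of it in every row, and Egfr and Erbb3 cross it, with all fits that leave out 1 array to the right. Erbb3 has no point where the dimmest genes were left out.

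The calls of the 3 genes were thus not equally secure. Egfr was not called in 13 of 18 alternatives and Erbb3 in 10 of the 17 that could test it, while neither changed sign. Their unadjusted p stayed at or below 0.00343 for Egfr and 0.00757 for Erbb3 in all of these. Some of the lost calls were fixed by construction, because the threshold settings reused the reported fit. There, adjusted p of 0.0411 for Egfr and 0.0450 for Erbb3 could not pass 0.01. Egfr at 1.46-fold could not pass a minimum change of 1.5-fold. Fits that left out an array hold fewer samples, and they called 64 to 121 of all genes lower, against 189 in the reported fit.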

How the data were processed

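RNA of 3 SCC FAK-wt and 3 SCC FAK-/- samples was measured on Affymetrix mouse arrays. Gene values by Ensembl identifier were made by the authors with RMA in the affy package, and the deposited values were taken as log2 from their range. Software versions, probe mapping and the background variant are not given in the sources used here, and the background step affects dim genes. All 17204 genes were fitted with cell line as the sole term in limma 3.58.1 (R 4.3.3, lmFit and eBayes defaults, two-sided) with Benjamini-Hochberg adjustment, after testing on simulated data, and intervals are 95% moderated ones. Genes were named from the given identifiers, and all 10 are reported. Since 0 identifiers matched the ensembl column of the RefSeq table, the neuregulins, sheddases, adaptors, receptor inhibitors, cell type markers and the fak gene were not analysed here. Genes, lists and tests were chosen with earlier results of these data known. Arrays have no read depth, and 3 per line limit precision. The 18 alternatives changed moderation, scaling, array weights, a filter on dim genes, covariates, the replicate number as a block, the arrays included and the threshold.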

Additional observations from a re-analysis of the deposited data

How the results depend on the processing

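No family gene was called higher in SCC FAK-wt under any of the 18 alternatives (0 genes each time). In the reported fit 0.820% of all genes were called higher, and 0 of 10 genes lies near that share. The number called lower, 3, became 1 (Btc) without moderation, with the replicate block, with the array spread as a covariate, at an adjusted p under 0.01 and in each fit without 1 array (range 1 to 1). It was 2 with a variance trend, median centering or a minimum change of 1.5-fold, each time without Egfr, and with the dimmest 33.3% of genes left out, where Erbb3 was not tested. The replicate block gave adjusted p of 0.0193 for Btc, 0.121 for Egfr and 0.109 for Erbb3. Deviations of same-numbered arrays correlated at -0.034 to 0.028 across genes, so the numbers showed no pairing over the table as a whole. Pairing in only some genes was not tested by these correlations.

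Signs held in 175 of 177 gene values. The exceptions, both without SCC FAK-wt replicate 3, were Tgfa (0.012) and Egf (-0.14), neither called. The variance trend, no moderation, the filter on dim genes, the replicate block and the thresholds kept the reported differences by construction. In those settings no sign could change. Without 1 array in turn, Tgfa ranged from -0.28 to 0.012 and Egf from -0.14 to 0.33.

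Over all genes, 141 were called higher and 189 lower. The counts were 247 and 302 with a variance trend, 14 and 25 without moderation, 69 and 91 with the replicate block, and 80 and 115 with the array spread. They were 44 to 77 and 64 to 121 without 1 array, where fits hold fewer samples, and by construction 549 and 630 at the unadjusted threshold of 0.01, against 35 and 50 for an adjusted 0.01. Except for these stricter or looser thresholds and smaller fits, the cause was not tested. Results on the pathway and marker lists were not run.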
